A study of Homo sapiens with 12 samples.

Results

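The G1 cyclins, the CIP/KIP inhibitors of cyclin-dependent kinases (CDKs) and the pocket proteins RB1 and RBL2 were followed across the series as 10 genes, CCND1, CCND2, CCND3, CCNE1, CCNE2, CDKN1A, CDKN1B, CDKN1C, RB1 and RBL2. They were chosen by symbol, with earlier results of these data known, and all 10 were found among the 20531 genes listed. RNAseq was performed on SKBR-3, an established breast cancer cell line with amplified HER2 and without estrogen receptor, in 4 groups of 3 replicates. Cells received a pool of non-targeting (NT) siRNA or a pool of siRNA to FOXA1, a pioneer transcription factor of luminal cells, and, by the labels after 48 h, either the solvent DMSO or 300 nM lapatinib, an inhibitor of the HER2 and EGFR kinases, for 24 h. The groups are called NT DMSO, NT lapatinib, FOXA1 siRNA DMSO and FOXA1 siRNA lapatinib. They share 1 cell line, the labels give no difference between them other than siRNA and drug, and no source used here says whether replicates came from separate cultures.

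In G1, growth factor signals raise D-type cyclins, which activate CDK4 and CDK6, and the active kinases begin to phosphorylate the pocket proteins. Unphosphorylated RB1 restrains activating E2F factors, and RBL2 (p130) joins repressor E2Fs in quiescent cells. Released E2F drives E-type cyclins, which activate CDK2 and carry the cell into S phase, while CIP/KIP proteins bind and restrain these kinases.

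The upstream sequences of CCNE1, CDKN1B and RBL2 are shown because only these members had an entry at the annotated gene start. CCNE1 fell with the drug, and CDKN1B and RBL2 rose. Each is the 250 bases before the annotated gene start in RefSeq (GRCh38.p14, plus strand), at chr19:29811741-29811990, chr12:12717118-12717367 and chr16:53434221-53434470. Capitals mark a GC box (GGGCGG) or a CCAAT box (CCAAT) on either strand.
CCNE1: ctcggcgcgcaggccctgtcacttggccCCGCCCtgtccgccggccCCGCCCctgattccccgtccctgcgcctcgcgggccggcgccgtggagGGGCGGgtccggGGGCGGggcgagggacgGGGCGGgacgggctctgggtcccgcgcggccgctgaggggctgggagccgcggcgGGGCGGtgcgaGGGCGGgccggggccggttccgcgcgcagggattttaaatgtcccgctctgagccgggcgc
CDKN1B: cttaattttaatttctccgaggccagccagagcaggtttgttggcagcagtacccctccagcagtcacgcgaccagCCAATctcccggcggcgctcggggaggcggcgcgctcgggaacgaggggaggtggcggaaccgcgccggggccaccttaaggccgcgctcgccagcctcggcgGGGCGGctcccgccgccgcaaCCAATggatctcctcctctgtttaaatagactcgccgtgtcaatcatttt
RBL2: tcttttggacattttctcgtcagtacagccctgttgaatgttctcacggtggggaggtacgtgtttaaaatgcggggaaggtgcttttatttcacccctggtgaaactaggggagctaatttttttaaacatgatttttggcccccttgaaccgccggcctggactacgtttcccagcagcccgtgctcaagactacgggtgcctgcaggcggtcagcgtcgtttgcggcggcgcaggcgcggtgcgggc
The CCNE1 window held 7 GC boxes and was 81.2% G or C, the CDKN1B window held 1 GC box and 2 CCAAT boxes at 64.4%, and the RBL2 window held neither at 55.2%. Among 35116 windows of RefSeq starts, 42.6% held a GC box and 32% a CCAAT box. None of the 3 windows held the E2F letters searched on either strand, namely TTCCCGC, the variant TTGGCGC, the variant TTCGCGC and the variant TTGCCGC, found in 10.9% of windows. None held the forkhead letters GTAAACA or their variant GTCAACA, found in 4.84%. The entries for CCND3, CDKN1A and RB1 begin at other starts and are not printed. CCND1, CCND2, CCNE2 and CDKN1C have no entry.

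Library totals ran from 25749578 to 32271850 estimated counts. FOXA1 itself had 8308 to 13177 normalized counts in the 6 NT libraries and 1160.1 to 2384 in the 6 FOXA1 siRNA libraries, with no overlap. A normalized count is the estimated count after each library was brought to a common depth by its TMM factor. Markers of a HER2-amplified luminal line summed to between 12105 and 18190 TPM (transcript level per length and depth) per library. This sum includes ERBB2, the HER2 gene, at 2718 to 6105 TPM. The epithelial cadherin CDH1 was near 0 (0.03 to 0.25 TPM), and ESR1 and PGR together reached at most 0.98 TPM. The 9 markers of other cells summed to 20.8 to 47.2 TPM, nearly all from CD68 (14.8 to 42.5 TPM) and COL1A1 (2.74 to 5.58 TPM). With NT siRNA the sum was higher in lapatinib (32.4 to 42.8 TPM) than in DMSO (20.8 to 31.1 TPM). With FOXA1 siRNA it was 35.4 to 47.2 TPM in lapatinib and 26.1 to 34.7 TPM in DMSO. VIM, PTPRC and PECAM1 were at 0 in the lowest library and at most at 0.32 TPM, and the part of these markers in the results was not tested. Replicate 2 stood apart in all 4 groups, with chi-square per degree of freedom of 12.1 to 17.6 against replicates 1 and 3, and 3.62 to 5.68 between those. Results that change without replicate 2 are given with both values. In bulk RNA, fewer cells of a kind and less RNA per cell cannot be told apart.

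Lapatinib lowered all 4 detected G1 cyclins with either siRNA, and raised CDKN1B, RB1 and RBL2. With NT siRNA, 4 of the 9 tested genes rose, against 30.5% of all genes tested, and 4 fell, against 29.2%. With FOXA1 siRNA, 3 rose, against 29%, and 4 fell, against 29.1%. At a log2 change of at least 1 in size, 3 genes fell in each comparison (7.13% and 5.12% of all genes) and 0 rose (6.64% and 4.93%). The 9 genes had a median log2 fold change of 0.17 under NT siRNA and -0.19 under FOXA1 siRNA, beside 0.03 and 0.01 over all genes. The DMSO and lapatinib libraries did not overlap for 8 of the 9 genes with NT siRNA, against 66.3% of all genes, and for 7 with FOXA1 siRNA, against 65.3%. The plot of normalized counts by group shows every library.

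**Figure D1:**
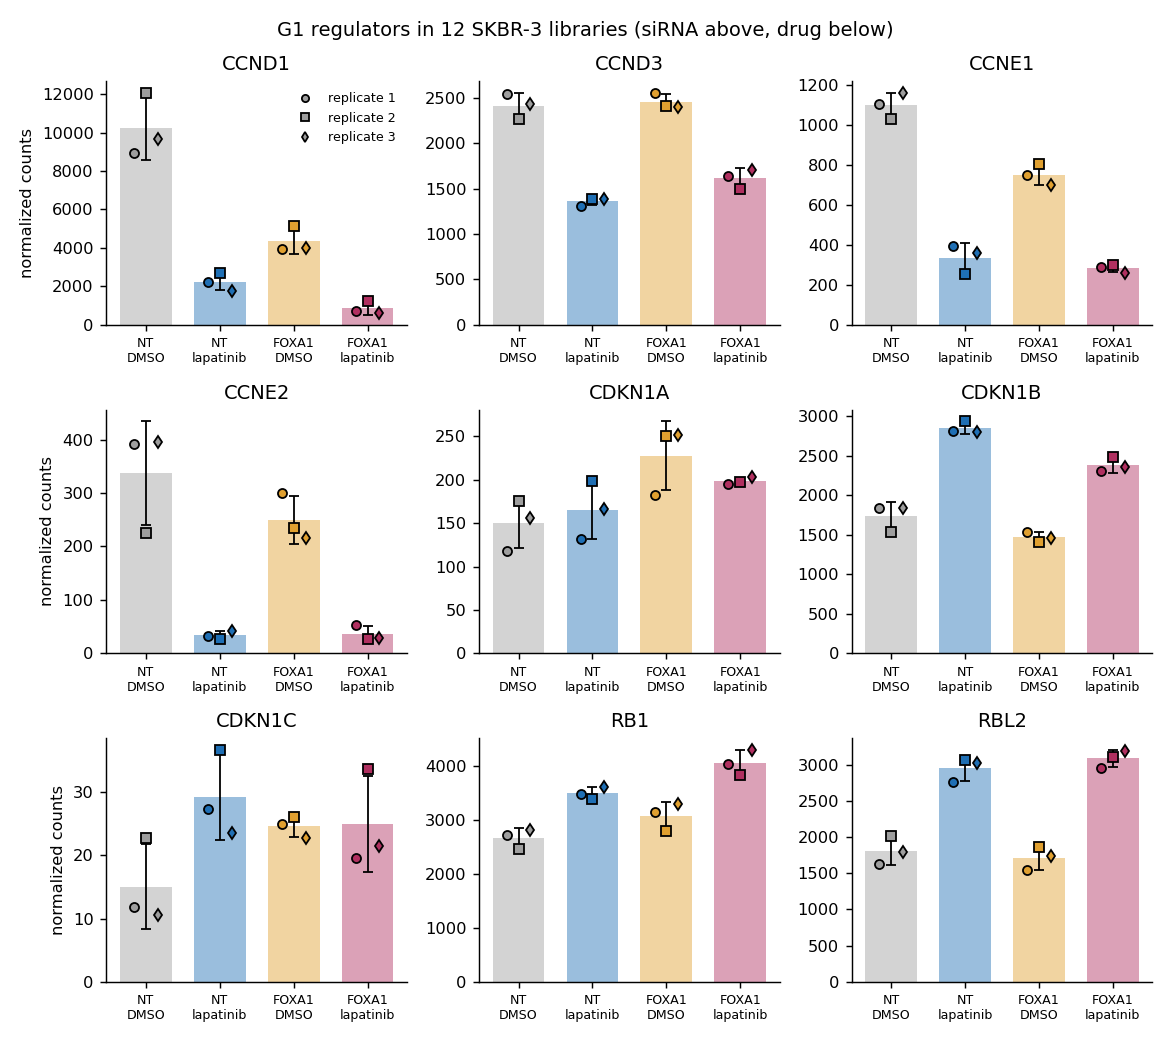
Normalized counts (y axis, from 0) of the 9 detected genes in each group of siRNA and drug, with bars at the mean of 3 replicates, error bars of 1 SD and 1 point per library by replicate number. CCND1 falls from a mean of 10233 in NT DMSO to 859.9 in FOXA1 siRNA lapatinib, while RBL2 rises with the drug under either siRNA.

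CCND1 (cyclin D1, chr11:69641156-69654474, plus strand) activates CDK4 and CDK6. Its normalized counts were 8958, 12078 and 9662 in NT DMSO and 2241, 2674 and 1784 in NT lapatinib. They were 3926, 5159 and 3980.5 in FOXA1 siRNA DMSO and 722, 1232 and 625 in FOXA1 siRNA lapatinib. No 2 of the 4 groups overlapped, the order was the same for each replicate number, and replicate 2 was the highest library in 4 of 4 groups. Lapatinib lowered CCND1 4.52-fold with NT siRNA (log2 -2.18, SE 0.16, edgeR quasi-likelihood test, Benjamini-Hochberg adjusted p = 1.42e-05) and 5.02-fold with FOXA1 siRNA (log2 -2.33, SE 0.23, adjusted p = 7.39e-05). FOXA1 siRNA lowered it 2.33-fold in DMSO (log2 -1.22, SE 0.14, edgeR adjusted p = 0.000381) and 2.61-fold in lapatinib (log2 -1.38, SE 0.25, adjusted p = 0.00258). With both, the mean was 8.4% of the NT DMSO mean. The difference between the lapatinib responses was -0.14 on the log2 scale, with a 95% interval from -0.82 to 0.54 (edgeR adjusted p = 0.856). With the replicate number as a block it was -0.16 (SE 0.14, edgeR adjusted p = 0.474).

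CCND3 (cyclin D3), the other detected D-type cyclin, had 2544, 2265 and 2437 normalized counts in NT DMSO and 1315, 1388 and 1385 in NT lapatinib. It had 2559, 2415 and 2405 in FOXA1 siRNA DMSO and 1636, 1499 and 1711 in FOXA1 siRNA lapatinib. The DMSO groups overlapped, and both lapatinib groups lay below them without overlap, the FOXA1 siRNA group above the NT group. The log2 change with lapatinib was -0.80 under NT siRNA (SE 0.06, edgeR adjusted p = 1.33e-05) and -0.60 under FOXA1 siRNA (SE 0.06, adjusted p = 7.62e-05). FOXA1 siRNA left a difference of 0.04 in DMSO (95% interval -0.08 to 0.16, edgeR adjusted p = 0.583) and raised it by 0.24 in lapatinib (SE 0.06, adjusted p = 0.0161), the latter with adjusted p up to 0.0642 when single libraries were left out and 0.00139 with the replicate block. The interaction was 0.22 (edgeR adjusted p = 0.151, and 0.0511 with the replicate block) and, without replicate 2, 0.31 (adjusted p = 0.0139).

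CCND2, the third D-type cyclin, had 0 counts in all 12 libraries and was not tested. A count of 0 allows up to 3 counts per library, or 0.093 to 0.117 CPM, so it was not detectable at this depth.

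In TPM, which allows levels of different genes to be compared per length, CCND1 made up 66.2% ± 4.69 (SD, n = 3) of D-type cyclin transcripts in NT DMSO, 42.9% ± 4.9 in NT lapatinib, 45.1% ± 4.24 in FOXA1 siRNA DMSO and 19.7% ± 7 in FOXA1 siRNA lapatinib. By TPM, CCND3 was thus the more abundant D-type cyclin in every library of the last 3 groups and in none of the first. In FOXA1 siRNA DMSO replicate 2 the 2 were nearly equal, at 75.86 TPM for CCND1 and 76.24 for CCND3. Summed D-type cyclin TPM was 224 ± 25.1, 74.1 ± 7.7, 141 ± 10.1 and 62.3 ± 1.6 in the same order.

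CCNE1 (cyclin E1, chr19:29811991-29824312, plus strand) activates CDK2. It had 1107, 1033 and 1159 normalized counts in NT DMSO and 392, 255 and 361 in NT lapatinib. It had 750.4, 805 and 699.6 in FOXA1 siRNA DMSO and 291, 301 and 261 in FOXA1 siRNA lapatinib. The lapatinib groups overlapped each other and lay far below both DMSO groups, which did not overlap. CCNE1 changed with lapatinib by -1.69 on the log2 scale under NT siRNA (SE 0.15, edgeR adjusted p = 2.84e-05) and -1.39 under FOXA1 siRNA (SE 0.09, adjusted p = 8.77e-06). FOXA1 siRNA changed it by -0.54 in DMSO (SE 0.07, edgeR adjusted p = 0.000835). In lapatinib the difference was -0.25 (95% interval -0.62 to 0.12, edgeR adjusted p = 0.247), and -0.46 without replicate 2 (adjusted p = 0.00743). The interaction was 0.31 (95% interval -0.08 to 0.70, edgeR adjusted p = 0.349).

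CCNE2 (cyclin E2) had the largest fall among the 9 genes with lapatinib under either siRNA. It had 391, 225 and 396 normalized counts in NT DMSO and 32.1, 26.8 and 42.1 in NT lapatinib. It had 299.8, 234 and 215 in FOXA1 siRNA DMSO and 52.7, 26.9 and 28.7 in FOXA1 siRNA lapatinib. Every lapatinib library was below every DMSO library, while the siRNA groups overlapped under both drugs. The fall was 9.83-fold with NT siRNA (log2 -3.30, SE 0.27, edgeR adjusted p = 2.29e-05) and 6.89-fold with FOXA1 siRNA (log2 -2.78, SE 0.25, adjusted p = 4.46e-05). FOXA1 siRNA gave -0.42 in DMSO (95% interval -0.93 to 0.09, edgeR adjusted p = 0.161). With the replicate number as a block this became -0.40 (adjusted p = 0.0307), and without replicate 2 -0.60 (adjusted p = 0.00429). In lapatinib the value was 0.09 (95% interval -0.65 to 0.82, edgeR adjusted p = 0.844), and the interaction was 0.53 (-0.39 to 1.45, adjusted p = 0.525).

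CCNE1 was 83.3% ± 3.56 (SD, n = 3) of E-type cyclin TPM in NT DMSO and 93.1% ± 0.243 in NT lapatinib, and 81.9% ± 2.73 and 92.3% ± 2.69 with FOXA1 siRNA.

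CDKN1B (p27, chr12:12717368-12722369, plus strand) restrains CDK2 complexes. It had 1839, 1530.0 and 1842 normalized counts in NT DMSO and 2813, 2939 and 2803 in NT lapatinib. It had 1533, 1409.7 and 1463 in FOXA1 siRNA DMSO and 2304, 2485 and 2352 in FOXA1 siRNA lapatinib. The lapatinib groups were above both DMSO groups, and the NT group above the FOXA1 siRNA group. Lapatinib raised it by 0.74 (SE 0.07, edgeR adjusted p = 6.09e-05) and 0.71 (SE 0.05, adjusted p = 2.13e-05). FOXA1 siRNA changed it by -0.23 in DMSO (SE 0.08, edgeR adjusted p = 0.0424), which held in 1 of 6 fits that left out a library (adjusted p up to 0.141), and by -0.27 in lapatinib (SE 0.05, adjusted p = 0.00299). In DMSO it was lower in 3 of 3 same-number pairs, with an edgeR adjusted p of 0.00202 with the replicate block and 0.000835 without replicate 2. The interaction was -0.02 (95% interval -0.23 to 0.19, edgeR adjusted p = 0.95).

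CDKN1A (p21), a p53 target, had 118, 176 and 156 normalized counts in NT DMSO and 132, 199 and 166 in NT lapatinib. It had 182, 250.3 and 251 in FOXA1 siRNA DMSO and 195, 198 and 203 in FOXA1 siRNA lapatinib. Lapatinib and DMSO overlapped under either siRNA. The lapatinib values were 0.17 (95% interval -0.29 to 0.62, edgeR adjusted p = 0.493) and -0.19 (-0.51 to 0.13, adjusted p = 0.268). FOXA1 siRNA raised CDKN1A in DMSO by 0.62 (SE 0.19, edgeR adjusted p = 0.0306), without overlap, and this held in 2 of 6 fits that left out a library (adjusted p up to 0.102). It was higher in 3 of 3 same-number pairs, with an edgeR adjusted p of 0.000281 with the replicate block and 0.0117 without replicate 2. In lapatinib it gave 0.25 (95% interval -0.09 to 0.59, edgeR adjusted p = 0.207), and 0.40 without replicate 2 (adjusted p = 0.049). The interaction was -0.35 (95% interval -0.90 to 0.20, edgeR adjusted p = 0.477).

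CDKN1C (p57), the third CIP/KIP gene, was scarce, with 11 to 37 estimated counts per library. Its normalized counts were 11.8, 22.8 and 10.5 in NT DMSO and 27.3, 36.8 and 23.6 in NT lapatinib. They were 25.0, 26.1 and 22.8 in FOXA1 siRNA DMSO and 19.6, 33.6 and 21.5 in FOXA1 siRNA lapatinib. The drug groups lay apart by a narrow margin with NT siRNA and overlapped with FOXA1 siRNA, and replicate 2 was the highest library in 4 of 4 groups. Lapatinib raised it with NT siRNA by 0.98 (SE 0.36, edgeR adjusted p = 0.0444), which held in 1 of 6 fits that left out a library (adjusted p up to 0.144) and not by DESeq2 (adjusted p = 0.0908). With the replicate block the edgeR adjusted p was 0.0145, and without replicate 2 it was 0.0156. With FOXA1 siRNA the value was 0.03 (95% interval -0.58 to 0.64, edgeR adjusted p = 0.928). FOXA1 siRNA gave 0.72 in DMSO (edgeR adjusted p = 0.116), and 1.10 without replicate 2 (adjusted p = 0.0261). The interaction was -0.94 (95% interval -1.91 to 0.04, edgeR adjusted p = 0.244), and -1.39 without replicate 2 (adjusted p = 0.0427).

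RB1, the retinoblastoma protein (chr13:48303751-48481890, plus strand), had 2728, 2466 and 2812 normalized counts in NT DMSO and 3481, 3391 and 3615 in NT lapatinib. It had 3149.6, 2804 and 3296 in FOXA1 siRNA DMSO and 4051, 3833 and 4311 in FOXA1 siRNA lapatinib. Replicate 3 was the highest and replicate 2 the lowest library in 4 of 4 groups, and only the DMSO groups overlapped, by a margin that the choice of scaling genes decides. Lapatinib raised RB1 by 0.41 with either siRNA (SE 0.06 and 0.07, edgeR adjusted p = 0.000466 and 0.00141). FOXA1 siRNA raised it by 0.22 in DMSO (SE 0.07, edgeR adjusted p = 0.0373, up to 0.129 with a library left out) and by 0.21 in lapatinib (SE 0.06, adjusted p = 0.0163, up to 0.0581). With the replicate block the edgeR adjusted p was 0.000247 in DMSO and 0.000206 in lapatinib, and without replicate 2 it was 0.00158 and 0.00602. The interaction was 0.01 (95% interval -0.20 to 0.22, edgeR adjusted p = 0.977).

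RBL2 (p130, chr16:53434471-53491648, plus strand) had 1624, 2022 and 1797 normalized counts in NT DMSO and 2761, 3064 and 3032 in NT lapatinib. It had 1544, 1866 and 1737 in FOXA1 siRNA DMSO and 2961, 3117 and 3199.7 in FOXA1 siRNA lapatinib. Drug separated the libraries completely and siRNA did not. Lapatinib raised RBL2 by 0.72 (SE 0.09, edgeR adjusted p = 0.000175) and 0.86 (SE 0.07, adjusted p = 2.96e-05). FOXA1 siRNA gave -0.07 in DMSO (95% interval -0.30 to 0.17, edgeR adjusted p = 0.621) and 0.06 in lapatinib (-0.07 to 0.19, adjusted p = 0.42). The interaction was 0.15 (95% interval -0.11 to 0.41, edgeR adjusted p = 0.53).

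**Figure D2:**
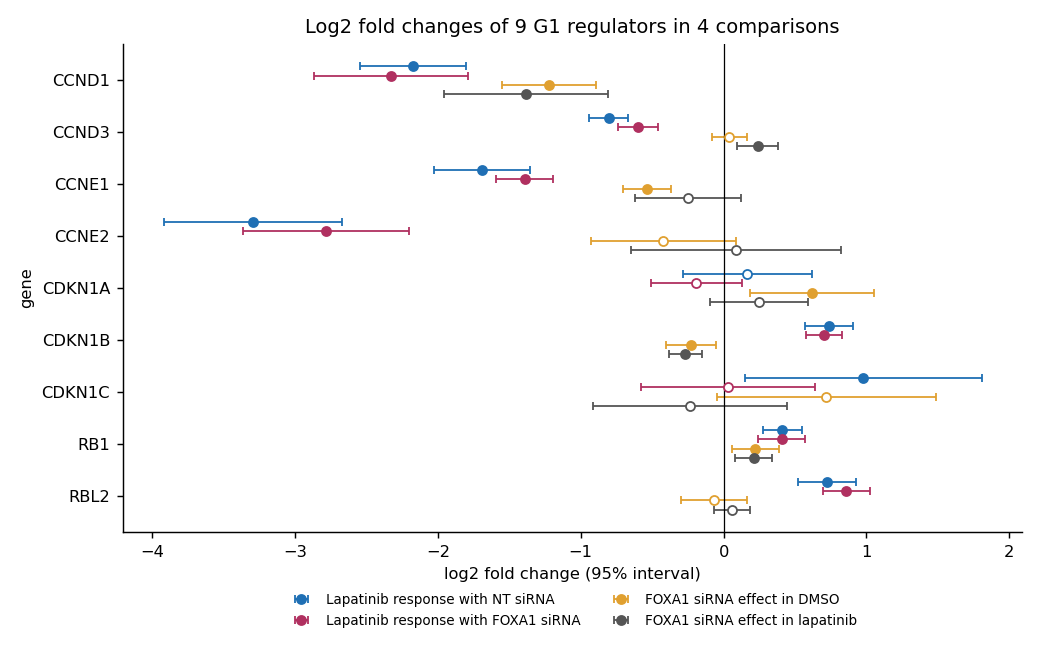
Log2 fold changes (x axis) of the 9 tested genes (y axis) in 4 comparisons by colour, with 95% intervals, filled where the edgeR adjusted p is below 0.05. The 4 cyclins lie to the left of 0 for lapatinib. CCND1 and CCNE1 lie to the left in all 4 comparisons, CCNE1 unfilled for FOXA1 siRNA in lapatinib.

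FOXA1 siRNA moved fewer of these genes than lapatinib did, as it did over all genes tested. In DMSO 2 of 9 rose, against 21.9% of all genes, and 3 fell, against 21.3%, or 4 with the replicate block (30.2% of all genes). In lapatinib 2 rose, against 22.7%, and 2 fell, against 22.2%. CCND1 was the only member past a log2 change of 1 in either (2.77% and 3.9% of all genes fell that far, and 4.06% and 4.51% rose). The siRNA groups did not overlap for 4 of 9 genes in DMSO, against 53.7%, and for 4 in lapatinib, against 55.5%. In DMSO these were CCND1, CCNE1, CDKN1A and CDKN1C, and with scaling factors from all listed genes CDKN1B and RB1 joined them and CDKN1C left. Each siRNA comparison shares its libraries with a lapatinib comparison. The interaction of siRNA and drug passed for 0 of 9 genes by edgeR, against 3.99% of all genes with a positive and 3.2% with a negative value. Of the 9, 1 had an unadjusted p below 0.05. Without replicate 2, a setting whose share of all genes is not reported here, 2 passed.

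Levels per length put the inhibitor transcripts beside the cyclin transcripts, and protein levels were not examined here. CDKN1B was 89.8% ± 2.96 of summed CIP/KIP TPM in NT DMSO, 92.3% ± 1.3 in NT lapatinib, 83.2% ± 2.4 in FOXA1 siRNA DMSO and 90% ± 0.204 in FOXA1 siRNA lapatinib (SD, n = 3). The ratio of summed CIP/KIP to summed G1 cyclin TPM was 0.203, 0.161 and 0.2 in NT DMSO and 0.893, 0.919 and 0.959 in NT lapatinib. It was 0.276, 0.246 and 0.289 in FOXA1 siRNA DMSO and 0.916, 0.955 and 0.942 in FOXA1 siRNA lapatinib. The lapatinib groups overlapped and stood above both DMSO groups, of which the FOXA1 siRNA group was the higher without overlap. RB1 was 61.4% ± 4.98 of the RB1 and RBL2 sum in NT DMSO, 55.4% ± 0.881 in NT lapatinib, 66.6% ± 3.61 in FOXA1 siRNA DMSO and 59.5% ± 0.553 in FOXA1 siRNA lapatinib.

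**Figure D3:**
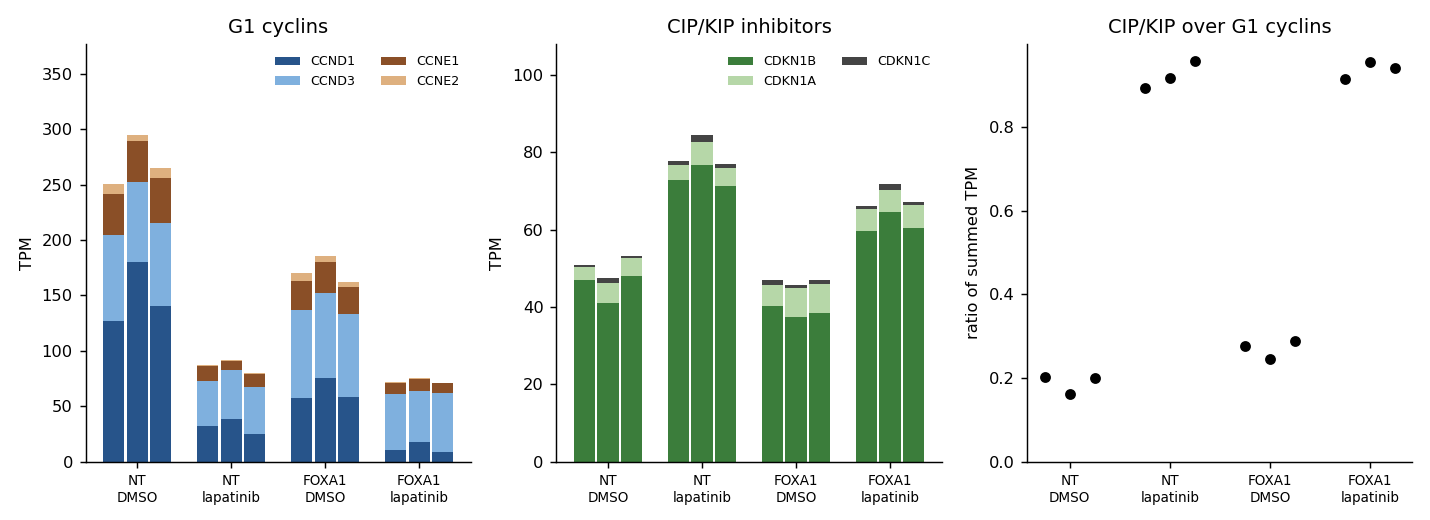
Stacked TPM of G1 cyclins (left) and CIP/KIP inhibitors (middle) and the ratio of their sums (right), with 1 bar or point per library in order of replicate number within each group. The ratio lies between 0.161 and 0.289 in DMSO and between 0.893 and 0.959 in lapatinib.

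The kinases, E2F factors and other partners were taken from lists by role. Over all genes tested, 29.2% fell and 30.5% rose with lapatinib under NT siRNA, and 29.1% fell and 29% rose under FOXA1 siRNA. Of 7 G1 kinases and their activators, 4 fell and 1 rose with lapatinib under NT siRNA, and 4 fell and 2 rose under FOXA1 siRNA. CDK2, the partner of E-type cyclins, changed by -1.72 and CDK4, a partner of D-type cyclins, by -0.89 (edgeR adjusted p = 1.03e-05 and 6.65e-06) with NT siRNA, and CDC25A, a phosphatase that activates CDK2, by -2.73 (adjusted p = 3.27e-06). CDK6, the other D-type partner, had 1136, 1240.5 and 1131 normalized counts in NT DMSO and 3630.2, 2913 and 3379 in FOXA1 siRNA DMSO. FOXA1 siRNA raised it by 1.51 in DMSO and 2.05 in lapatinib (edgeR adjusted p = 1.53e-05 and 1.44e-05). Lapatinib raised CDK6 by 0.46 under FOXA1 siRNA (edgeR adjusted p = 0.0016) and gave -0.08 under NT siRNA (adjusted p = 0.626). The CDK6 interaction was 0.56 and did not pass (edgeR adjusted p = 0.0641), but passed with the replicate block (adjusted p = 0.0109). Of 4 INK4 inhibitors, which bind CDK4 and CDK6, 2 fell and 1 rose with lapatinib under either siRNA, and CDKN2D changed by -1.39 with NT siRNA (edgeR adjusted p = 0.000105).

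Of 10 E2F and DP factors, 8 fell and 0 rose with lapatinib under either siRNA, with medians of -1.46 and -1.01. E2F1, an activator, changed by -3.80 and -3.01, and the repressors E2F7 and E2F8 by -3.75 and -3.23 with NT siRNA (edgeR adjusted p = 1.74e-06, 2.54e-06, 7.86e-06 and 7.6e-06). The 11 E2F-driven G1/S genes reported here all fell with lapatinib under either siRNA, with medians of -1.95 and -1.66. FOXA1 siRNA in DMSO also lowered all 11 (median -0.90), against 21.3% of all genes. In lapatinib 6 of them fell with the siRNA, against 22.2%, and 1 rose, against 22.7%. With the replicate block MCM2 also fell and MCM3 also rose (edgeR adjusted p = 0.0408 and 0.0497). Of 7 genes for p107, the MuvB core and its partner MYBL2, 6 fell with lapatinib under either siRNA. MYBL2 changed with the drug by -3.30 and -2.65 (edgeR adjusted p = 5.61e-06 and 3.03e-06). RBL1 (p107), the relative of RBL2, changed by -1.64 and -1.19 (edgeR adjusted p = 2.73e-05 and 4.26e-05) where RBL2 rose. Of 7 genes for the turnover of G1 regulators, 5 fell with lapatinib under NT siRNA, and 4 fell and 1 rose under FOXA1 siRNA. DTL had the largest change among them, at -4.24 with NT siRNA and -3.54 with FOXA1 siRNA (edgeR adjusted p = 1.29e-06 and 3.22e-06). SKP2 changed by -1.05 with NT siRNA (edgeR adjusted p = 0.00021). AMBRA1 was the gene that rose under FOXA1 siRNA, at 0.22 (edgeR adjusted p = 0.0145). The AMBRA1 value under NT siRNA was 0.09 and did not pass (edgeR adjusted p = 0.291), nor did its interaction, at 0.14 (adjusted p = 0.435). CUL1 and FBXW7, also turnover genes, fell under NT siRNA, at -0.41 and -0.34 (edgeR adjusted p = 0.000153 and 0.0147). Under FOXA1 siRNA CUL1 fell again (-0.30, edgeR adjusted p = 0.000249) and FBXW7 did not pass (-0.16, adjusted p = 0.108). Neither interaction passed, at 0.13 for CUL1 and 0.19 for FBXW7 (edgeR adjusted p = 0.199 and 0.393). The interaction of siRNA and drug passed for 7 of the 46 list genes reported here, all with a positive value, against 3.99% of all genes with a positive and 3.2% with a negative one. With the replicate block it passed for 19 with a positive value and 1 with a negative value, against 11.1% and 9.22% of all genes.

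**Figure D4:**
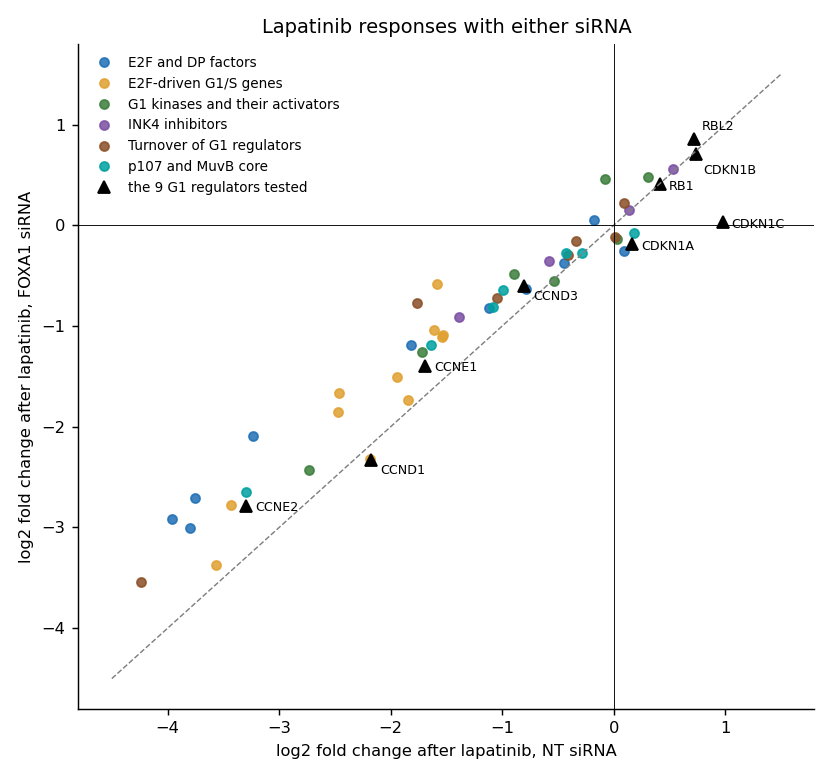
Log2 fold change after lapatinib with NT siRNA (x axis) and with FOXA1 siRNA (y axis), 1 point per gene, with circles for the lists by role, triangles for the 9 tested members and a dashed line of equal change. CCNE2 lies at -3.30 and -2.78, and RBL2 at 0.72 and 0.86.

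The gene most like each member was taken by Pearson's r of log2 CPM over 12 libraries among 10804 genes, as a description, since these libraries share the groups. It was NELF for CCND1 (r = 0.991), TCF19 for CCND3 (0.992), NT5DC2 for CCNE1 (0.992), NUP205 for CCNE2 (0.991), STAG2 for CDKN1B (0.99), CCDC90B for RB1 (0.989) and LAMB2 for RBL2 (0.988). The r was lower for CDKN1C (CAB39, 0.941) and CDKN1A (ZNF76, 0.896). These symbols, NELF among them, are printed as deposited and may be older names that now stand for other genes.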

How the data were processed

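RNAseq libraries of SKBR-3 cells were grouped by the siRNA and drug in their labels. The authors aligned reads to hg38 and deposited, for each library, an RSEM expected count, a TPM, a mean transcript length and a signal normalized to the upper quartile for each of 20531 genes with UCSC transcripts. Per the submitters' processing notes, R 3.2.2 and DESeq2 1.12.3 were used. The deposited TPM sums to 896833 to 939340 per library over the listed genes. The labels give 48 h of siRNA before the drug and the methods 24 h. The labels name 2 different library kits, and the strand used in counting is not given in the sources used here, so reads of overlapping genes on the other strand (such as LTO1 for CCND1 and GPR19 for CDKN1B) cannot be told apart.

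Expected counts were rounded and tested with edgeR 4.0.16 (glmQLFit and glmQLFTest, R 4.3.3) after TMM scaling, on the 6 libraries of a comparison (12 for the interaction) keeping a gene if any 1 of these libraries reached 10 counts, with Benjamini-Hochberg adjustment over all genes tested and a threshold of 0.05. Log2 fold changes are from this model. Printed normalized counts use TMM factors from the same filtered genes over all 12 libraries, as the fits do. 2 scalings were run for them: factors from all listed genes were used first, and were replaced, with earlier values of these data in view, by the filtered ones. Each comparison of 2 groups was tested with factors from its own 6 libraries, and the interaction with the filtered factors over 12 throughout, so the replacement changed no test. The deposited signal was read only to check the unit. The procedure was tested on simulated data.

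Replicate numbers are shared across groups. Deviations from group means over 12161 genes correlated at 0.241 to 0.630 for all 18 same-number pairs and at -0.461 to 0.200 for different numbers, so the numbers pair the libraries, on the evidence of the data. The main tests do not use this pairing, which only the replicate block models, and some list counts differ with the block. P-values measure only the spread between these libraries, which may be technical, and limits at 0 counts cover counting error only. The members and lists were chosen with earlier results of these data known, and 1 gene of the list of E2F-driven G1/S genes is not reported here. All 10 members are named in every comparison, and some genes of the lists that passed a test are named as examples, chosen after their values were seen. Alternatives were RLE and upper-quartile scaling, DESeq2 1.42.0, other filters and thresholds, all libraries in 1 model, the replicate block and leaving out each library. Leaving out replicate 2 throughout was chosen after seeing the data.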

Additional observations from a re-analysis of the deposited data

Results flagged for a closer look

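The response to lapatinib differed between the siRNAs for 7 of the 46 genes reported from the lists by role, against 3.99% of all genes with a positive value, by the interaction term of edgeR's quasi-likelihood test, each with a smaller fall under FOXA1 siRNA. On the log2 scale the difference was 0.42 for CDK4 (adjusted p = 0.00439), 0.80 for E2F1 (adjusted p = 0.0443), 0.64 for E2F3 (adjusted p = 0.0211), 1.16 for E2F8 (adjusted p = 0.0215). It was 0.31 for TFDP1 (adjusted p = 0.0218), 1.004 for CKS1B (adjusted p = 0.00246), 0.66 for CDC6 (adjusted p = 0.0145). With the replicate number as a block 19 had a positive value and 1, TFDP2, a negative one (-0.33 with all libraries unpaired, edgeR adjusted p with the block = 0.0375). CKS1B, a cofactor of SKP2, had 1484, 1292 and 1334 normalized counts in NT DMSO and 359, 462 and 366 in NT lapatinib. With FOXA1 siRNA it had 1509.8, 1417 and 1525 in DMSO and 838, 972 and 775 in lapatinib. None of the 9 tested members passed the interaction test with all libraries, and CCND3 and CDKN1C passed it without replicate 2. In DMSO, FOXA1 siRNA changed E2F1, E2F3, E2F8, TFDP1 and CDC6 by -0.45, -0.39, -0.91, -0.19 and -0.32 (edgeR adjusted p up to 0.0252). CDK4 and CKS1B gave 0.13 each (adjusted p = 0.0665 and 0.145). In lapatinib the siRNA raised CDK4 by 0.53, CKS1B by 1.11 and CDC6 by 0.32 (adjusted p up to 0.0139). E2F1, E2F3, E2F8 and TFDP1 gave 0.33, 0.23, 0.23 and 0.10 (adjusted p from 0.085 to 0.275). With the replicate block, CDK4 and CKS1B passed in DMSO and E2F3 and TFDP1 in lapatinib.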

How the results depend on the processing

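At a log2 change of at least 1, the members that rose were 0 in all 4 comparisons of groups, and 1 fell with FOXA1 siRNA in DMSO and 1 in lapatinib. At an adjusted p below 0.01, 0 rose with FOXA1 siRNA in DMSO and 0 in lapatinib. Leaving out each library in turn gave 0 to 2 that rose and 2 to 4 that fell with FOXA1 siRNA in DMSO, and 0 to 3 that rose and 2 to 3 that fell in lapatinib. Leaving out replicate 2 in every group, chosen after seeing the data, gave 1 member with a positive interaction (CCND3) and 1 with a negative one (CDKN1C). With FOXA1 siRNA it gave 3 that rose and 4 that fell in DMSO and 3 of each in lapatinib. Shares of all genes with libraries left out, or at an adjusted p below 0.01, are not reported here. These counts can therefore not be called particular to the members. With the replicate block, 4 fell with FOXA1 siRNA in DMSO in place of 3, CCNE2 being added at -0.40, and no other call of a member changed.

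Signs reversed only with libraries left out, in values that passed no test. The values then ran from -0.24 to 0.18 for CDKN1C with lapatinib under FOXA1 siRNA, from -0.14 to 0.0244 for RBL2 with FOXA1 siRNA in DMSO and from -0.29 to 0.28 for CCNE2 with FOXA1 siRNA in lapatinib. For the interaction they ran from -0.50 to 0.0422 for CCND1, from -0.0615 to 0.0654 for CDKN1B and from -0.0546 to 0.0631 for RB1. The cause was not tested. Without replicate 2 in any group the values were -0.21 for CDKN1C with lapatinib under FOXA1 siRNA and 0.0252 for the CDKN1B interaction.

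Normalized counts scaled by factors from all listed genes differed by at most 1.19% from those printed. That choice changed whether NT DMSO and FOXA1 siRNA DMSO overlapped for 3 genes: CDKN1B and RB1 overlapped only with the filtered genes, and CDKN1C only with all genes. Calls at an adjusted p near 0.05 (CDKN1A, CDKN1B and RB1 with FOXA1 siRNA in DMSO, CDKN1C with lapatinib) were lost in most fits that left out a library and kept with the replicate block. Counts of CDKN1C in all groups and of CCNE2 in lapatinib were low.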
